A study of Homo sapiens with 18 samples.

Results

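RNA interference against EZH2 and RNA interference against E2F1 were compared with each other in MDA-MB-231 cells, an established human line of triple-negative breast cancer. The comparison held 4 of the 10 distinct libraries of the series, 2 labelled shEZH2 and 2 labelled shE2F1, and no control library entered it. Each knockdown used 1 short hairpin RNA sequence delivered by lentivirus for 24 h, and the transduced cells were kept in puromycin (2 μg/ml) for 72 h before poly(A)-selected RNA was sequenced. The 2 control shRNA libraries went through the same steps and are given beside the results to show where the level of a gene lay without either knockdown. Nothing in the labels or methods says that the replicates were separate cultures, so p-values measure the spread between these samples, which may be technical.

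PRC2, a Polycomb complex that keeps developmental genes silent, has EZH2 as its enzyme and places methyl groups on lysine 27 of histone H3. E2F1 is a transcription factor held in check by the retinoblastoma protein, and E2F factors drive the genes that carry cells from G1 into DNA synthesis. The study asked how far both proteins act together in this cancer. The direct contrast asks the complementary question, namely which transcripts differed between cells with the EZH2 hairpin and cells with the E2F1 hairpin. As each target had a single hairpin sequence, effects of the sequence and of the lowered target cannot be told apart.

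Among 15373 genes tested, 3582 differed between the knockdowns by more than 2-fold at an adjusted p under 0.01, which is 23.3% and is the definition of a called gene throughout. Of these, 1598 (10.4%) were higher in shEZH2 and 1984 (12.9%) were lower in shEZH2, which is the same as higher in shE2F1. The median log2 difference was 1.5 among the first and -1.64 among the second, and 421 and 678 genes, respectively, differed by more than 4-fold. Both libraries of one knockdown lay above both of the other for 82.6% of all genes tested, so that separation of the groups alone says little about a single gene. Differences are given as log2 values of shEZH2 minus shE2F1 with their standard error (SE), and levels as CPM, counts set relative to library size and composition, which serve to compare libraries and not genes of different length.

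Library totals ran from 13198932 to 19441814 expected counts in the 4 libraries, so that a gene without a count in a library may still have reached 0.154 to 0.227 CPM, considering counting error alone. Within shE2F1, 0.0299% of 10034 well-measured genes differed by more than 2-fold between the replicates, and within shEZH2 0.419% did. Between the knockdowns the share was 18.8% to 23.6%, with shEZH2 replicate 2 the farther from shE2F1. Of 12 genes that mark the line, 8 had enough counts to be tested, with 1 called higher in shEZH2, EPCAM, and 2 lower, VIM and CDH1 (median -0.63). Their summed level, most of it VIM, was 2382 and 2301 CPM in shEZH2, 3718 and 3862 CPM in shE2F1 and 4199 and 4592 CPM in the controls. ESR1 and PGR, which encode the estrogen and progesterone receptors, stayed at or below 0.217 CPM, CDKN2A, which this line has lost, was at 0, and CD44 stood at 738 to 827 CPM in the 4 libraries. Of 16 markers of blood, endothelial, stromal and other cell types, 6 were at 0 in every knockdown and control library. Their summed level was 6.14 and 8 CPM in shEZH2 and 10.2 and 10.1 CPM in shE2F1, with 1 of 5 tested members called, PDGFRB (log2 difference -1.28, SE 0.31), a call that was lost without either shE2F1 library and without shEZH2 replicate 1 (-0.88 without the latter), and with an effective length offset (-0.78).

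**Figure D1:**
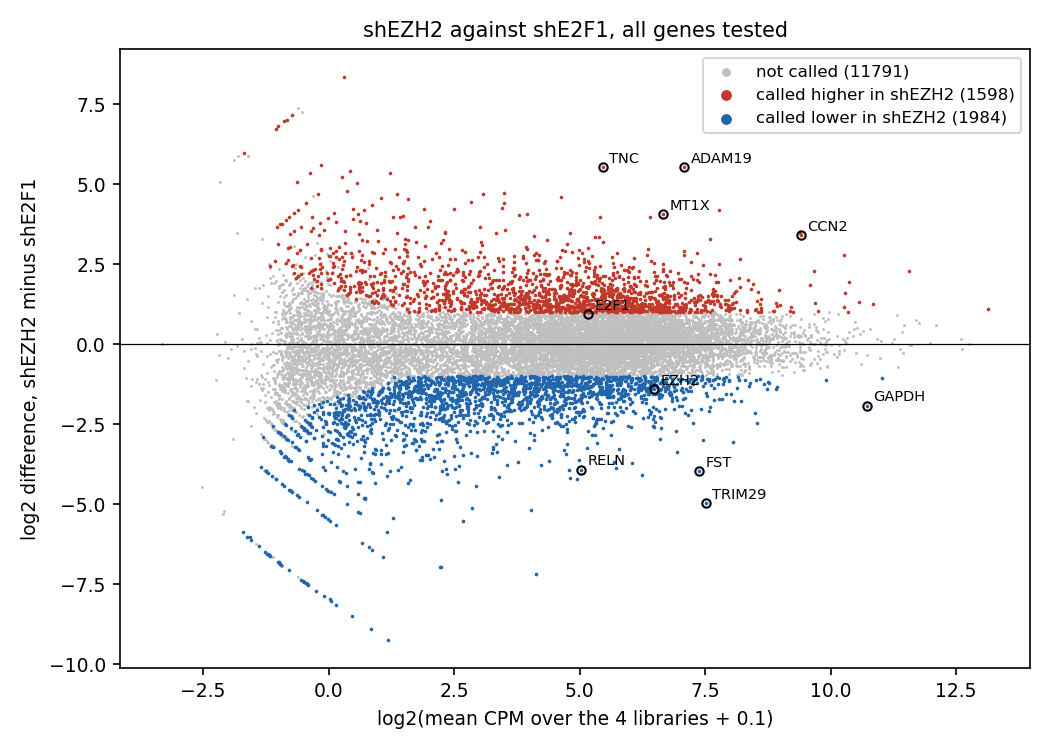
Log2 difference, shEZH2 minus shE2F1, against log2 of the mean CPM over the 4 libraries for each of 15373 genes tested. Red points are the 1598 genes called higher in shEZH2, blue points the 1984 called lower and grey points the rest, and circles mark genes discussed in the text.

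Each hairpin was first checked on its own target. EZH2 (ENSG00000106462, chromosome 7:148807257-148884321, minus strand, GRCh38) stood at 53 and 44.8 CPM in shEZH2 and at 122 and 138 CPM in shE2F1, against 155 and 183 CPM in the control libraries. The groups did not overlap, and EZH2 was 1.41 log2 units lower in shEZH2 (log2 difference -1.41, SE 0.12, adjusted p = 3.96e-06). E2F1 (ENSG00000101412, chromosome 20:33675477-33686385, minus strand) stood at 62.9 and 32.3 CPM in shEZH2 and at 26.2 and 22.7 CPM in shE2F1, against 145 and 140 CPM in the control libraries. All 4 knockdown libraries thus lay below both controls for E2F1, and the difference between the knockdowns was 0.95 (SE 0.24, adjusted p = 0.00517), short of the 2-fold threshold. The value depended on shEZH2 replicate 2, without which it was 1.37 (adjusted p = 1.23e-05) and called, while without shEZH2 replicate 1 it was 0.41 (adjusted p = 0.023). Correction for GC content and length also made it a call, at 1.34. The labels of both knockdowns matched their targets, but the contrast was between cells low in EZH2 and E2F1 transcripts and cells low in E2F1 transcript with EZH2 nearer to its control level.

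The other core subunits of PRC2 were not called. SUZ12, the subunit on which the complex is assembled, stood at 153 and 147 CPM in shEZH2 and at 148 and 152 CPM in shE2F1 (difference 0.00, SE 0.10). EED, which binds the methylated product, differed by 0.27 (SE 0.11). EZH1, the second catalytic subunit, was at 35.4 and 40.2 CPM in shEZH2 and at 66 and 77.3 CPM in shE2F1. The difference of -0.92 (SE 0.12, adjusted p = 8.1e-05) fell short of 2-fold. It was -1.03 and -0.80 without shE2F1 replicate 1 and 2, and -0.83 and -1.01 without shEZH2 replicate 1 and 2. After the GC and length correction it was -1.02, and with an effective length offset -0.67. RBBP4, a histone chaperone shared with other complexes, differed by the same -0.92 (SE 0.09) and by -1.32 after the GC and length correction, while RBBP7 differed by -0.22 (SE 0.09). On the length-scaled TPM scale, EZH1 was at 22.9 and 25.1 TPM beside EZH2 at 31.9 and 26.5 TPM in shEZH2. In shE2F1 the corresponding levels were 34.6 and 42.3 TPM for EZH1 and 77.1 and 90.8 TPM for EZH2. Of 7 accessory subunits 2 were called higher in shEZH2 (28.6%, beside 10.4% of all genes). JARID2, which guides the complex to chromatin, stood at 182 and 205 CPM against 91.5 and 99.2 CPM (difference 1.02, SE 0.11). LCOR, which forms PALI1, stood at 131 and 140 CPM against 57.1 and 56.6 CPM (1.25, SE 0.09). Neither call held under every setting, since JARID2 came to 0.96 without shE2F1 replicate 1 and to 0.93 without shEZH2 replicate 2, and both fell under 2-fold after the GC and length correction (0.80 and 0.77). With an effective length offset, which sets the counts of each library against the length RSEM gave the gene there, LCOR came to 0.46 (adjusted p = 0.0605).

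**Figure D2:**
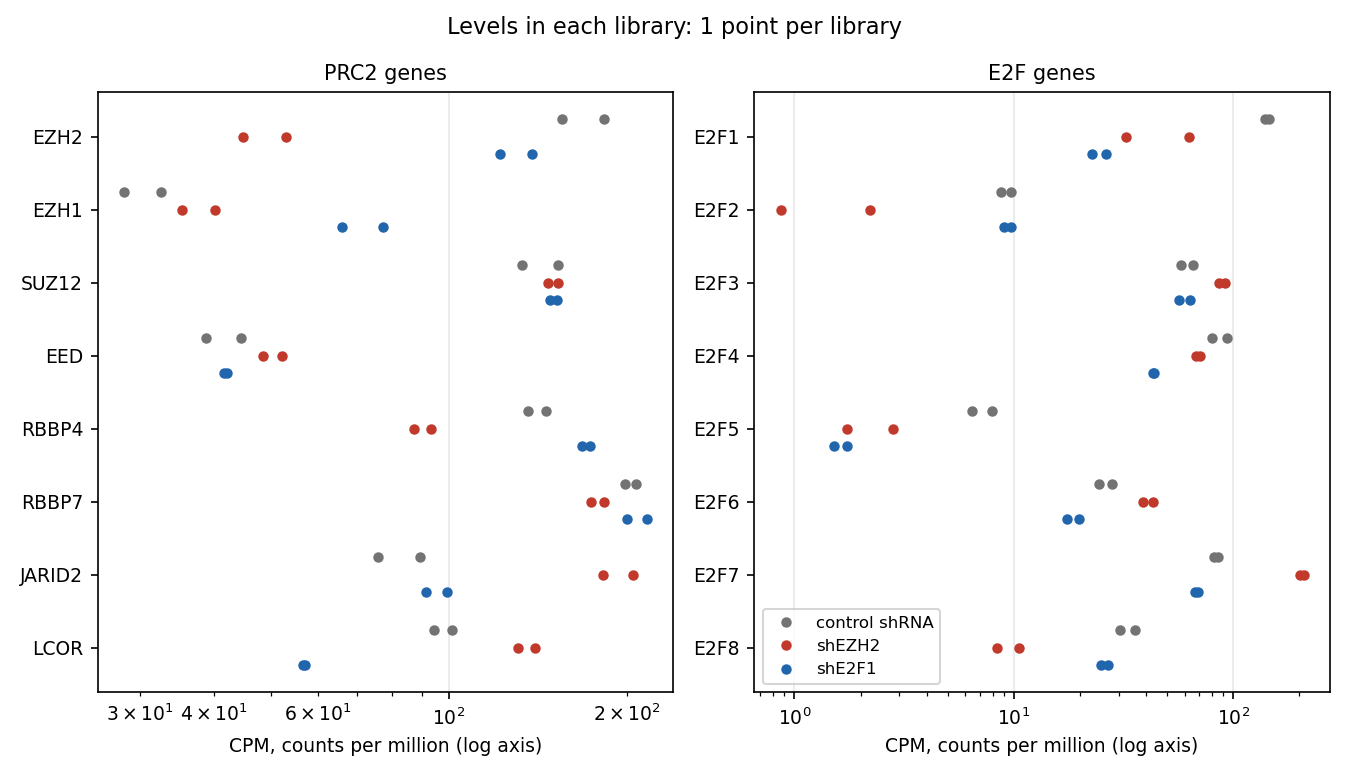
CPM on a log axis for PRC2 genes (left) and E2F genes (right), with 1 point per library and grey for control shRNA, red for shEZH2 and blue for shE2F1. EZH2 is lowest in shEZH2, E2F1 is below control in all 4 knockdown libraries, and E2F2 and E2F8 are lowest in shEZH2.

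Members of the E2F family were called in both directions. Of 13 E2F and pocket protein genes, 2 were called higher and 2 lower in shEZH2 (15.4% each, near the 10.4% and 12.9% of all genes), with a median of 0.45, and 7 were higher and 3 lower at an unadjusted p under 0.05 in edgeR. E2F2, an activator like E2F1, was at 2.20 and 0.864 CPM in shEZH2 and at 8.98 and 9.71 CPM in shE2F1, where the control libraries held 8.71 and 9.70 CPM. Its difference was -2.66 (SE 0.32), or -3.42 without shEZH2 replicate 1, with shEZH2 below all other libraries. E2F8, an atypical repressor that is itself an E2F target, was at 10.5 and 8.41 CPM against 25 and 26.9 CPM (-1.46, SE 0.15). E2F7, the other atypical repressor, went the opposite way, at 209 and 202 CPM against 66.8 and 69.2 CPM (1.59, SE 0.09), and so did the repressor E2F6, at 38.9 and 43.2 CPM against 19.9 and 17.5 CPM (1.13, SE 0.13). RB1 differed by 0.00 (SE 0.09), and E2F5, which the study followed, differed by 0.45 (SE 0.33) at 1.52 to 2.81 CPM in the 4 libraries. With the GC and length correction, 4 members of the group rather than 2 were called higher.

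A share of the genes of DNA synthesis was lower with the EZH2 hairpin. None of 46 S phase genes was called higher and 14 were called lower, or 30.4% beside 12.9% of all genes, and 39 of the 46 lay below 0, with a median of -0.58 beside -0.02 over all genes. At an unadjusted p under 0.05 in edgeR 4 members were higher and 35 lower, and DESeq2 called 0 higher and 13 lower. TK1, the thymidine kinase of the salvage pathway, was at 60.5 and 40.5 CPM in shEZH2 and at 232 and 217 CPM in shE2F1, where the controls had 238 and 236 CPM (difference -2.16, SE 0.15). GINS4, a subunit of the replicative helicase, was at 20.4 and 10.2 CPM against 62.3 and 56.6 CPM (-1.98, SE 0.23), and CDC45, its partner, at 23.1 and 16.4 CPM against 46.5 and 50.6 CPM (-1.31, SE 0.15). For these 3 genes the shE2F1 libraries were near the control libraries and both shEZH2 libraries were below them. RRM2, the regulated subunit of ribonucleotide reductase, was not lower in shEZH2 than in shE2F1. It was at 163 and 87.9 CPM in shEZH2, at 82.7 and 67.3 CPM in shE2F1 and at 372 and 433 CPM in the controls. The difference between the knockdowns was 0.73 (SE 0.23, adjusted p = 0.016), short of a call. It came to 1.12 (called) without shEZH2 replicate 2 and to 0.24 (adjusted p = 0.202) without shEZH2 replicate 1. The count of S phase genes called lower also rested in part on shEZH2 replicate 2, being smaller without it. The count of 0 called higher did not hold without that replicate, nor without shE2F1 replicate 1. The median of the group stayed between -0.70 and -0.49 over the settings tried.

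Genes of G2 and mitosis differed less. Of 50 such genes, 1 was called higher and 3 lower (2% and 6%, beside 10.4% and 12.9% of all genes), with a median of 0.21. Most differences were under 2-fold and more of them lay on the higher side, 25 higher and 8 lower at an unadjusted p under 0.05 in edgeR, and 23 and 8 when an adjusted p under 0.05 alone was required. DESeq2 called 1 higher and 3 lower. CCNB1, the mitotic cyclin, was at 156 and 141 CPM in shEZH2 and at 154 and 147 CPM in shE2F1, and these overlapped (difference -0.02, SE 0.11), with the controls at 323 and 395 CPM. CDC20, the activator of the anaphase-promoting complex, differed by -0.45 (SE 0.11), and the mitotic kinase PLK1 by -0.39 (SE 0.12), neither reaching 2-fold. With the GC and length correction in edgeR they came to -0.05 (adjusted p = 0.718) and -0.24 (adjusted p = 0.115). Both genes stood below both control libraries in all 4 knockdown libraries. Among those called, MYBL2, which switches on late cell cycle genes, was at 46.1 and 27.6 CPM against 119 and 119 CPM (-1.70, SE 0.18), and AURKB, the kinase of the chromosomal passenger complex, at 33.2 and 17.3 CPM against 70.9 and 70.4 CPM (-1.5, SE 0.22). CENPF, a kinetochore protein, was the member called higher (1.21, SE 0.10), and the phosphatase CDC25B the third called lower (-1.11, SE 0.10), and both calls were lost under the GC and length correction (0.74 and -0.83).

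Replication-dependent histone transcripts went against the other S phase genes. Of 47 members 24 had enough counts to be tested, 7 were called higher in shEZH2 (29.2%, beside 10.4% of all genes) and none lower, with a median of 0.95. In edgeR 2 were lower at an unadjusted p under 0.05, and DESeq2 called 7 higher and 0 lower. H2BC21 was at 46.3 and 61.4 CPM against 8.16 and 8.73 CPM (2.68, SE 0.17), and H2BC4 at 56.4 and 71.7 CPM against 18.5 and 17 CPM (1.85, SE 0.15). Most messages of this class carry no poly(A) tail, so a library selected on poly(A) measures a small, tailed share of them, and reads of near-identical copies were divided between genes by the authors' estimation. The count of those called higher was 14 with the GC and length correction and 4 without shE2F1 replicate 2, and 1 was called lower without shE2F1 replicate 1.

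The promoters of some of these genes carry the letters that E2F factors and the interferon-activated factors bind, and those with the largest differences among the genes lower in shEZH2 are shown. Each stretch holds the 160 bases before a RefSeq transcript start (GRCh38.p14), 5′ to 3′ on the strand of the gene, with the motif in capitals. For E2F the letters searched were TTTCGCGC and TTTGGCGC, on both strands. E2F2 lies at chr1:23531234-23531393 (minus), TIPIN, a fork protection factor, at chr15:66356686-66356845 (minus), and POLA2, a subunit of DNA polymerase alpha, at chr11:65261802-65261961 (plus).
E2F2: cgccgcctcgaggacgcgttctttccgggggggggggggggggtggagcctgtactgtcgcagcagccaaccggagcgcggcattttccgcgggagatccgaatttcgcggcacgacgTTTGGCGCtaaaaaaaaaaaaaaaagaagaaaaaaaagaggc
TIPIN: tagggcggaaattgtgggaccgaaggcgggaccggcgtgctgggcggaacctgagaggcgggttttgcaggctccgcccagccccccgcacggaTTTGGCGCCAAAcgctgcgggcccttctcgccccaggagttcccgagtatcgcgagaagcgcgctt
POLA2: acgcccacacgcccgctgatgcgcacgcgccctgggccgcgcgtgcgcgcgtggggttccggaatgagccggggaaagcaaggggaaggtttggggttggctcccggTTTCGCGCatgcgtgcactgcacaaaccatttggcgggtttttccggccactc
The window searched reached from 250 bases before to 50 bases after the start, and 11018 of the genes tested (71.7%) had one. Of 39 S phase genes with a window, 13 (33.3%) held either E2F motif, beside 2.48% of all genes. Among the 10 S phase genes called lower that had a window, 3 held one, beside 13 of 39 in the whole group. Over all genes, 2.42% of those called lower and 1.79% of those called higher in shEZH2 held one.

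For the interferon response the letters were GAAA, any 2 bases and GAAA, on both strands, the core of the interferon-stimulated response element. RSAD2 lies at chr2:6877617-6877776 (plus), IFIT1 at chr10:89392463-89392622 (plus), ISG15 at chr1:1013337-1013496 (plus) and DDX60 at chr4:168318753-168318912 (minus).
RSAD2: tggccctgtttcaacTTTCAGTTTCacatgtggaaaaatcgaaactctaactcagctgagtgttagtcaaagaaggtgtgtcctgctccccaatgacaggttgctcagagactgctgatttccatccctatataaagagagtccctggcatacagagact
IFIT1: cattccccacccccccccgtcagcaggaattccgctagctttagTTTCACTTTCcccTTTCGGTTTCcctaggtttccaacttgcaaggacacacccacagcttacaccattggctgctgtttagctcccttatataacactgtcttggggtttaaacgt
ISG15: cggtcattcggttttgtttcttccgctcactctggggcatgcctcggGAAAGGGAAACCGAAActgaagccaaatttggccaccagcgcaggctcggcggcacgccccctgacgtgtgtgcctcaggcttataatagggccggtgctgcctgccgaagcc
DDX60: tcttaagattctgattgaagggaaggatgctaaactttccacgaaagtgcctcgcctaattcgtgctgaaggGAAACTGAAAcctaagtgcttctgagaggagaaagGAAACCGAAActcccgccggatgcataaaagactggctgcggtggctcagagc
Capitals read TTTC first where the element lies on the other strand, as in RSAD2 and IFIT1. IFIT1, ISG15 and DDX60 held 2 elements each in these stretches, and those of ISG15 overlapped. Of 35 interferon-stimulated genes with a window, 26 (74.3%) held the element, beside 3.95% of all genes, and of the 16 called lower with a window 13 did. Over all genes, 4.43% of those called lower and 3.42% of those called higher held it.

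Interferon-stimulated genes had the lowest median of the 23 gene groups described here. Of 44 tested, 24 (54.5%, beside 12.9% of all genes) were called lower in shEZH2, 2 higher, and the median was -1.20. OASL, a member of the oligoadenylate synthetase family, was at 4.25 and 2.25 CPM in shEZH2 and at 63.1 and 53.4 CPM in shE2F1 (difference -4.21, SE 0.24), with the controls at 50.1 and 38.4 CPM. IFIT1, which binds foreign RNA, was at 11.7 and 8.92 CPM against 107 and 93.4 CPM (-3.29, SE 0.14, controls 77.3 and 72.7 CPM). For both genes the shEZH2 libraries lay far below all others, and the shE2F1 libraries were above the controls by 0.40 (SE 0.18) and 0.42 (SE 0.12). IFIT2, of the same family, was at 25.5 and 18.4 CPM against 227 and 224 CPM (-3.37, SE 0.17), and there the controls, at 89.4 and 67.7 CPM, lay between the knockdowns. ISG15, a ubiquitin-like modifier, showed the same order, with 25.1 and 26.2 CPM in shEZH2, 153 and 154 CPM in shE2F1 and 93.6 and 67 CPM in the controls (-2.58, SE 0.15). Members called lower at smaller size included the dynamin-like MX1 (-1.19, SE 0.16) and SAMD9 (-1.55, SE 0.11). The group was not uniform. OAS3 stood at 40.8 and 40.7 CPM against 41.2 and 40.8 CPM (-0.01, SE 0.11), PARP12 differed by 0.51 (SE 0.09), and XAF1 and EPSTI1 were called higher, at 1.37 (SE 0.26) and 1.69 (SE 0.36), of which XAF1 was lost without shE2F1 replicate 2 (1.18, adjusted p = 0.0139) and with the effective length offset (1.00, adjusted p = 0.0285), and at both settings neither member remained called. The median of the group stayed between -1.27 and -1.13 over all settings tried.

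Several sensors upstream of these genes were also lower in shEZH2, though most of the signalling proteins were not. Of 26 tested, 7 (26.9%, beside 12.9% of all genes) were called lower and none higher, with a group median of -0.17. DESeq2 gave the same counts, and 8 members were higher at an unadjusted p under 0.05 in edgeR. STING1, the adaptor of the DNA-sensing pathway, was at 26 and 28.8 CPM in shEZH2 and at 168 and 173 CPM in shE2F1 (-2.63, SE 0.11), with controls at 55.3 and 47.9 CPM. IFIH1, the RNA sensor MDA5, was at 7.13 and 7.08 CPM against 43.2 and 40.6 CPM (-2.56, SE 0.15), and the controls of both genes lay between the knockdowns. DHX58 (-2.73, SE 0.22) and RIGI (-2.15, SE 0.21), relatives of IFIH1, and the transcription factors IRF3 (-2.08) and IRF7 (-1.40) were also called. The interferon signal transducers TBK1 (0.06, SE 0.11) and JAK1 (0.23, SE 0.09) were not called. Of 17 genes of MHC class I presentation, 2 were called lower (11.8%, near the 12.9% of all genes) and none higher, with a median of -0.32. At an unadjusted p under 0.05 in edgeR 3 were higher, and DESeq2 called 0 higher. Without shE2F1 replicate 1 or without shEZH2 replicate 2, 1 was called lower.

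Of 26 chemokines and inflammatory cytokines, 8 were called lower in shEZH2 and 2 higher (30.8% and 7.69%, beside 12.9% and 10.4% of all genes, median -0.29). CXCL8, which attracts neutrophils, was at 8.19 and 10.4 CPM in shEZH2, 40.2 and 60.7 CPM in shE2F1 and 4.14 and 9.21 CPM in the controls (-2.43, SE 0.29). IL6 was likewise highest in shE2F1, at 2.58 and 2.25 CPM, 11.3 and 10.8 CPM, and 3.92 and 3.03 CPM (-2.20, SE 0.23). For both, the shE2F1 libraries stood above all others, and the controls were below shEZH2 on average for CXCL8 and above it for IL6. CCL26, an eosinophil attractant, was at 0.0759 and 0.403 CPM against 13.2 and 11.5 CPM, so that its fitted difference of -5.53 (SE 0.46) rests on a count near 0 in shEZH2, and it ran from -7.21 to -4.91 without either shEZH2 library. LIF, a cytokine of the IL-6 family, was called higher, at 82.3 and 92.2 CPM against 29.9 and 36.4 CPM (1.40, SE 0.12), and was the only member called higher without shE2F1 replicate 2.

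Extracellular matrix genes were called in both directions, with more of them higher in shEZH2. Of 32 collagens and collagen-modifying enzymes 10 were called higher (31.2%) and 2 lower (6.25%), with a median of 0.46. Of 35 matrix glycoproteins and proteases 11 were called higher (31.4%) and 5 lower (14.3%), with a median of 0.61. Over all genes 10.4% were called higher and 12.9% lower, so the lower calls were under or near that share. With the effective length offset 3 of the glycoproteins and proteases were called lower. TNC (tenascin C, an adhesion-modulating glycoprotein, chromosome 9:115019575-115118207) was at 81.5 and 90.4 CPM in shEZH2 and at 1.79 and 1.90 CPM in shE2F1, with controls at 14.3 and 23.2 CPM. Its difference was 5.54 (SE 0.24, adjusted p = 1.25e-07), and the control libraries lay between both knockdowns, 2.20 below shEZH2 and 3.34 above shE2F1 in log2 units. ADAM19, a membrane metalloprotease, had the same pattern at 221 and 312 CPM, 5.12 and 6.40 CPM, and 62.5 and 73.6 CPM (5.54, SE 0.20), although another coding gene overlaps it on its strand. COL6A3, a chain of microfibrillar collagen VI, was at 33.2 and 61.6 CPM in shEZH2 and at 1.64 and 2.28 CPM in shE2F1 (4.61, SE 0.32, or 3.76 with the effective length offset), and PLAU, the urokinase protease, at 251 and 318 CPM against 42.7 and 36.8 CPM (2.84, SE 0.13). For these last genes the controls, at 25.3 and 33.2 CPM and at 323 and 310 CPM, were nearer to shEZH2. LOX, which crosslinks collagen, was at 319 and 383 CPM against 38.1 and 33.8 CPM (3.29, SE 0.15), and there shE2F1 was nearer to the controls, at 19.9 and 14.4 CPM.

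Some basement membrane and secreted proteins went the other way. RELN (reelin, chromosome 7:103471381-103989658) was at 5.31 and 2.94 CPM in shEZH2, 57.9 and 64 CPM in shE2F1 and 3.01 and 2.91 CPM in the controls (-3.92, SE 0.21). The shE2F1 libraries alone stood apart. The heparan sulfate proteoglycan HSPG2 (perlecan) was at 36 and 22.5 CPM, 138 and 159 CPM, and 426 and 265 CPM (-2.35, SE 0.24), and the laminin chain LAMA5 at 57.6 and 47.2 CPM, 193 and 208 CPM, and 543 and 304 CPM (-1.94, SE 0.22). Both were below the controls in all 4 knockdown libraries and lowest in shEZH2. The network-forming collagen COL8A1 shared that order at 44.1 and 31 CPM, 128 and 118 CPM, and 437 and 451 CPM (-1.72, SE 0.14).

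TGF-beta signalling genes were called in both directions, 6 higher and 8 lower of 29 (20.7% and 27.6%, beside 10.4% and 12.9% of all genes), with a median of 0.33. The balance turned round without the fold threshold, since an adjusted p under 0.05 alone gave 15 higher and 8 lower, and an unadjusted p under 0.05 in edgeR gave 15 and 9. Latent TGF-beta binding proteins LTBP1 (2.75, SE 0.12) and LTBP2 (1.61, SE 0.17) and the feedback inhibitors PMEPA1 (2.61, SE 0.12) and SMAD7 (1.45, SE 0.16) were higher in shEZH2. On the BMP and activin side, FST (follistatin, which traps activin) was at 26.8 and 13.7 CPM against 336 and 289 CPM (-3.97, SE 0.23), with controls at 31.8 and 34.7 CPM, and the ligand BMP4 at 64.9 and 48.6 CPM against 521 and 427 CPM (-3.07, SE 0.23), with controls at 296 and 173 CPM. The BMP targets ID1 and ID3 were also lower in shEZH2 than in shE2F1 (-2.22, SE 0.18, and -1.88, SE 0.25). Against the controls, however, shE2F1 was higher for BMP4 (1.01, SE 0.21) and lower for ID1 (-1.24, SE 0.16) and ID3 (-0.56, SE 0.21). Of 26 YAP and TEAD targets, 2 were called higher and 1 lower (7.69% and 3.85%, both under the shares of all genes, median 0.15). Of those called higher 1 was left without shE2F1 replicate 1 and 1 without shEZH2 replicate 2, and 2 were called lower without shEZH2 replicate 1. CCN2 (connective tissue growth factor) stood out among them, at 1026 and 1453 CPM in shEZH2, 111 and 120 CPM in shE2F1 and 249 and 305 CPM in the controls (3.42, SE 0.17). In the RAS-MAPK output group, 3 of 32 were called higher and 2 lower, with a median of 0.16. These were 9.38% and 6.25%, both under the 10.4% and 12.9% of all genes. The called members included the EGFR inhibitor ERRFI1 (1.72, SE 0.10), which was higher, and the phosphatase DUSP4 (-1.79, SE 0.15), which was lower. With the GC and length correction 6 were called higher, and without shEZH2 replicate 2 fewer were called lower.

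Epithelial and mesenchymal identity genes did not move as a block, with 6 called higher and 7 lower of 31 and a median of -0.14. These were 19.4% and 22.6%, beside 10.4% and 12.9% of all genes. TRIM29, a keratinocyte-associated protein (chromosome 11:120111286-120185529), was at 12.4 and 10.5 CPM in shEZH2 and at 356 and 356 CPM in shE2F1, with controls at 35.5 and 15.7 CPM (-4.97, SE 0.30, adjusted p = 4.34e-07). The claudin CLDN4 was at 449 and 608 CPM against 134 and 125 CPM (2.02, SE 0.14), with controls at 193 and 170 CPM. The adhesion molecule EPCAM was at 28 and 27.2 CPM against 11.2 and 10.5 CPM (1.34, SE 0.13). Its controls, at 24.5 and 26.9 CPM, lay beside shEZH2. CDH1 (E-cadherin) went against them at 2.43 and 2.65 CPM in shEZH2 and 9.89 and 6.46 CPM in shE2F1 (-1.68, SE 0.37). The controls, at 0.86 and 0.182 CPM, lay below all 4 knockdown libraries. The call was lost without shE2F1 replicate 1 (-1.34), without shEZH2 replicate 1 (-1.62) and without shEZH2 replicate 2 (-1.75). It was also lost with the effective length offset, when the difference was -0.80 (adjusted p = 0.152). The count of members called lower was 4 without shE2F1 replicate 1 and 4 without shEZH2 replicate 1. VIM (vimentin), the mesenchymal filament protein, was at 1429 and 1281 CPM against 2759 and 2881 CPM (-1.06, SE 0.10), and came to -0.98 without shEZH2 replicate 2. In bulk RNA, fewer cells of a state and less RNA per cell cannot be told apart.

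**Figure D3:**
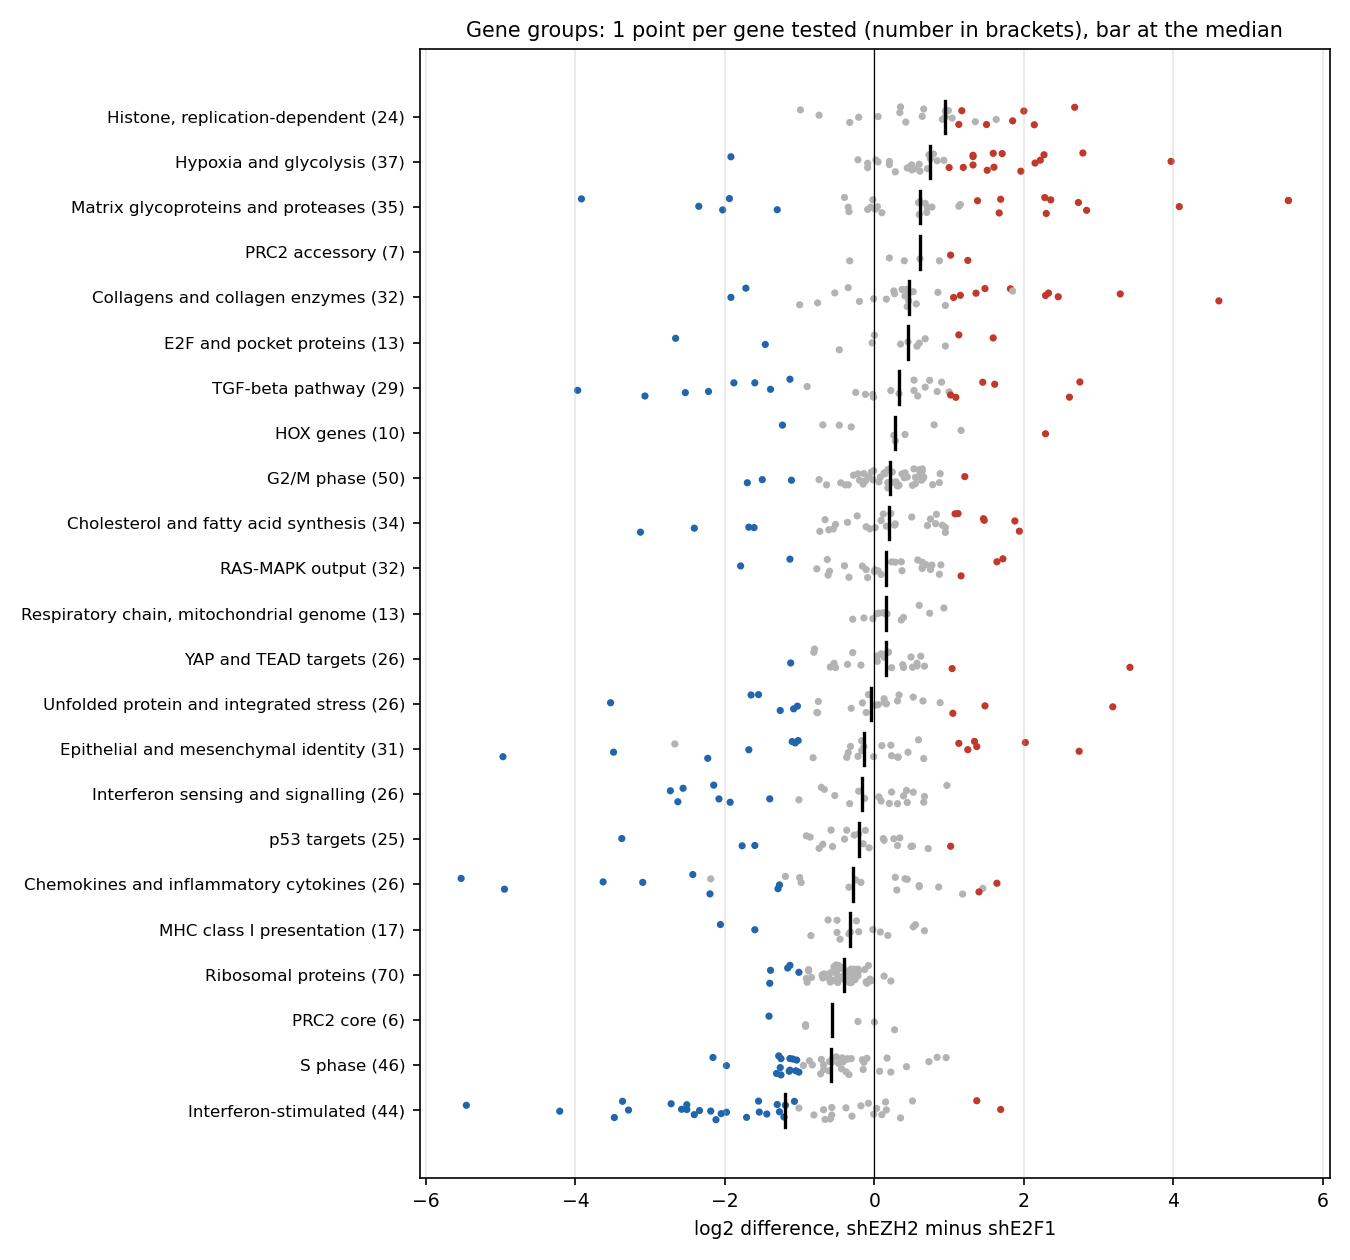
Log2 difference, shEZH2 minus shE2F1, for every tested member of 23 gene groups ordered by median, with 1 point per gene, red for called higher in shEZH2, blue for called lower and grey for not called. The black bar marks the median of the group, which runs from -1.20 for interferon-stimulated genes to 0.95 for replication-dependent histone genes.

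Hypoxia-responsive and glycolytic genes were the group with the highest share called higher in shEZH2 among the 23. They had 15 of 37 called higher (40.5%, beside 10.4% of all genes), with 1 lower and a median of 0.75. The median of the group was 0.05 for shEZH2 minus control and -0.67 for shE2F1 minus control. ANGPTL4, a secreted inhibitor of lipoprotein lipase, was at 144 and 171 CPM in shEZH2, 11 and 9.17 CPM in shE2F1 and 4.94 and 6.55 CPM in the controls (3.97, SE 0.15). The vasodilator peptide ADM was at 131 and 151 CPM, 20.3 and 20.6 CPM, and 71.7 and 94.6 CPM (2.79, SE 0.14). The glucose transporter SLC2A3 was at 37.9 and 49.9 CPM, 9.75 and 9.17 CPM, and 41.9 and 33 CPM (2.22, SE 0.17). The controls therefore lay beside shE2F1 for ANGPTL4, between the knockdowns for ADM and beside shEZH2 for SLC2A3. Enzymes of the glycolytic chain were less far apart, PGK1 at 0.54 (SE 0.09), ENO1 at 0.48 (SE 0.09) and TPI1 at -0.09 (SE 0.08), none of them called, while the pyruvate kinase PKM was called at 1.32 (SE 0.10). GAPDH was the only member called lower. It stood at 801 and 619 CPM in shEZH2, at 2909 and 2461 CPM in shE2F1 and at 5534 and 5878 CPM in the controls, and the difference of -1.92 (SE 0.13) separated all 3 groups of libraries.

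Among 34 genes of cholesterol and fatty acid synthesis, 6 were called higher and 4 lower, with a median of 0.19. These were 17.6% and 11.8%, beside 10.4% and 12.9% of all genes. The sterol regulators split, SREBF2 at 160 and 189 CPM against 44.4 and 46.5 CPM (1.94, SE 0.19) and SREBF1 at 15.6 and 10.2 CPM against 67.4 and 67.8 CPM (-2.41, SE 0.30). The acetyl-CoA synthetase ACSS2 was lower in shEZH2 (-3.13, SE 0.21) and the fatty acid elongase ELOVL6 higher (1.46, SE 0.09). Of 25 p53 targets tested 1 was called higher and 3 lower (4% and 12%, neither above the share of all genes, median -0.21). ZMAT3, the member called higher (1.02, SE 0.12), came to 0.94 without shE2F1 replicate 2 and to 0.94 without shEZH2 replicate 1. With the GC and length correction it came to 0.54, also short of a call. Among those lower, GDF15, a stress-induced cytokine, was at 0.759 and 0.230 CPM against 5.45 and 4.34 CPM (-3.38, SE 0.45). The GDF15 difference was -4.37 and -2.68 without shEZH2 replicate 1 and 2. The p53-induced cell cycle inhibitor CDKN1A was not called (-0.07, SE 0.10). Of 26 genes of the unfolded protein and integrated stress responses 3 were called higher and 6 lower, with a median of -0.04. These were 11.5% and 23.1%, beside 10.4% and 12.9% of all genes. The transcription factor ATF5 was among those lower (-1.55, SE 0.11).

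Ribosomal protein genes differed little but in one direction. Of 70, 68 lay below 0, with a median of -0.40, or -0.28 after the GC and length correction. Calls were few, 5 lower (7.14%, beside 12.9% of all genes) and 0 higher, and DESeq2 called 4 and 0. At an unadjusted p under 0.05 in edgeR 58 were lower and 0 higher. RPL13 was at 270 and 200 CPM in shEZH2 and at 631 and 610 CPM in shE2F1, against 798 and 760 CPM in the controls (-1.40, SE 0.13). None of 13 genes of the mitochondrial genome was called by edgeR or by DESeq2 (median 0.15), and 5 were higher and 1 lower at an unadjusted p under 0.05 in edgeR. Of 38 HOX genes, which PRC2 silences in many tissues, 10 had enough counts to be tested, 1 was called higher and 1 lower (median 0.27), and the lower call was lost without any 1 of the 4 libraries. These calls were 10% each of the tested members, near the 10.4% higher and 12.9% lower of all genes. HOXD1 was at 13.3 and 13.1 CPM in shEZH2 and at 2.99 and 2.39 CPM in shE2F1 (2.29, SE 0.21).

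The genes with the largest differences, irrespective of group, are shown by library. Of 1012 coding genes called higher with a unique symbol, at least 200 counts on average and no overlap of the groups, the 12 largest were TNC, ADAM19, COL6A3, KRTAP2-3, XDH, MT1X, MYH15, IL31RA, ANGPTL4, MT1E, EDN2 and CCN2. MT1X, a metallothionein that binds zinc and copper, was at 163 and 219 CPM in shEZH2, 12.1 and 10.7 CPM in shE2F1 and 15.7 and 15 CPM in the controls (4.07, SE 0.16). The hair keratin-associated KRTAP2-3 was at 368 and 466 CPM, 19.6 and 26.6 CPM, and 4.89 and 11.3 CPM (4.18, SE 0.26), and xanthine dehydrogenase XDH at 27 and 30.9 CPM, 1.69 and 1.74 CPM, and 1.61 and 1.52 CPM (4.08, SE 0.19). In these 3 genes shEZH2 stood alone above the other libraries. The cytokine receptor IL31RA differed in being displaced on both sides of the controls, at 76.6 and 83.3 CPM, 4.97 and 5.10 CPM, and 20.3 and 20.7 CPM (3.99, SE 0.12). MT1X, MT1E and KRTAP2-3 have close copies among which the estimation can divide reads, so their separate values are less certain than a sum over copies would be.

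Among 908 such genes called lower, the 12 largest were MYO15B, TSPAN8, TRIM29, OASL, PTGES, PSG9, CEMIP, FST, CLIC3, RELN, ALDH3B1 and EEF1A2. MYO15B was at 0.531 and 0 CPM in shEZH2 and at 31.7 and 37.1 CPM in shE2F1, with controls at 14.6 and 6.67 CPM, and with 1 library at 0 its fitted difference of -7.18 (SE 0.58) depends on the prior count, being -12.3 and -5.99 without shEZH2 replicate 1 and 2. The tetraspanin TSPAN8 was at 0.910 and 0.806 CPM, 33.7 and 29.4 CPM, and 2.85 and 3.03 CPM (-5.20, SE 0.21). PTGES, the terminal prostaglandin E synthase, was at 2.20 and 3.45 CPM, 65.9 and 40.4 CPM, and 13.5 and 5.52 CPM (-4.20, SE 0.40), and the hyaluronan-degrading CEMIP at 9.26 and 7.71 CPM, 131 and 154 CPM, and 72.5 and 34.4 CPM (-4.08, SE 0.30). In all 4 of these genes both control libraries lay between the knockdowns. EEF1A2, an elongation factor of muscle and nerve, was at 0.986 and 2.07 CPM, 22.8 and 20.9 CPM, and 15.5 and 12.7 CPM (-3.78, SE 0.26, or -4.45 without shEZH2 replicate 2), where shE2F1 was the nearer to the controls.

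**Figure D4:**
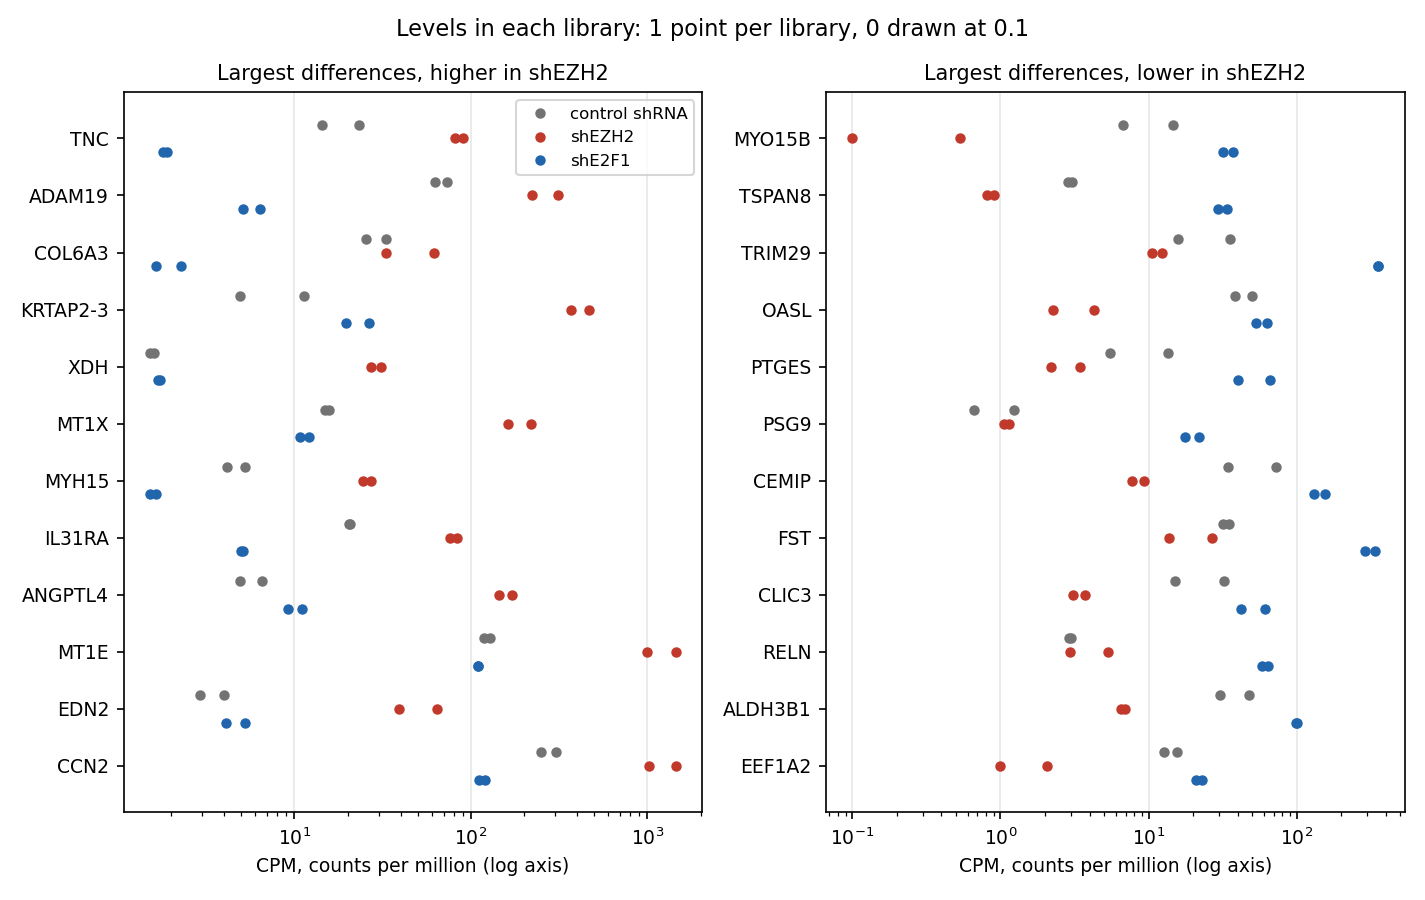
CPM on a log axis for the 12 genes with the largest differences higher in shEZH2 (left) and lower in shEZH2 (right), with 1 point per library and a level of 0 drawn at 0.1. Red (shEZH2) and blue (shE2F1) points are separate for every gene, and the grey control points lie between them for some genes, such as TNC and CEMIP, and beside one of them for others, such as XDH and RELN.

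The difference between the knockdowns moved with base composition. Over 15366 genes, none of them an independent replicate of another, the log2 difference had r = -0.20 with the GC content of the transcript and r = 0.17 with its log2 length. The median difference ran from 0.22 in the bin of genes poorest in GC, out of 10 bins of equal size, (median 36.8%) to -0.50 in the richest (63.7%), where 25.7% of genes were called lower and 6.84% higher, against 5.60% and 10.3% in the poorest. In the same 2 bins the median of shEZH2 minus control was 0.22 and -0.51, and that of shE2F1 minus control 0.01 and 0.03. Chromosome 19, whose tested genes had a median GC content of 57.7%, had 20.9% of its 1144 genes called lower and 4.11% higher (median -0.39, or -0.21 corrected), and long noncoding RNAs had 14.6% lower and 7.77% higher (median -0.33, or -0.26 corrected). After correction for GC content and length, 2861 of the 3582 genes (79.9%) were still called, and the medians of the interferon-stimulated, S phase and hypoxia groups were -1.13, -0.57 and 0.77. The part of base composition in the remaining values was not tested.

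**Figure D5:**
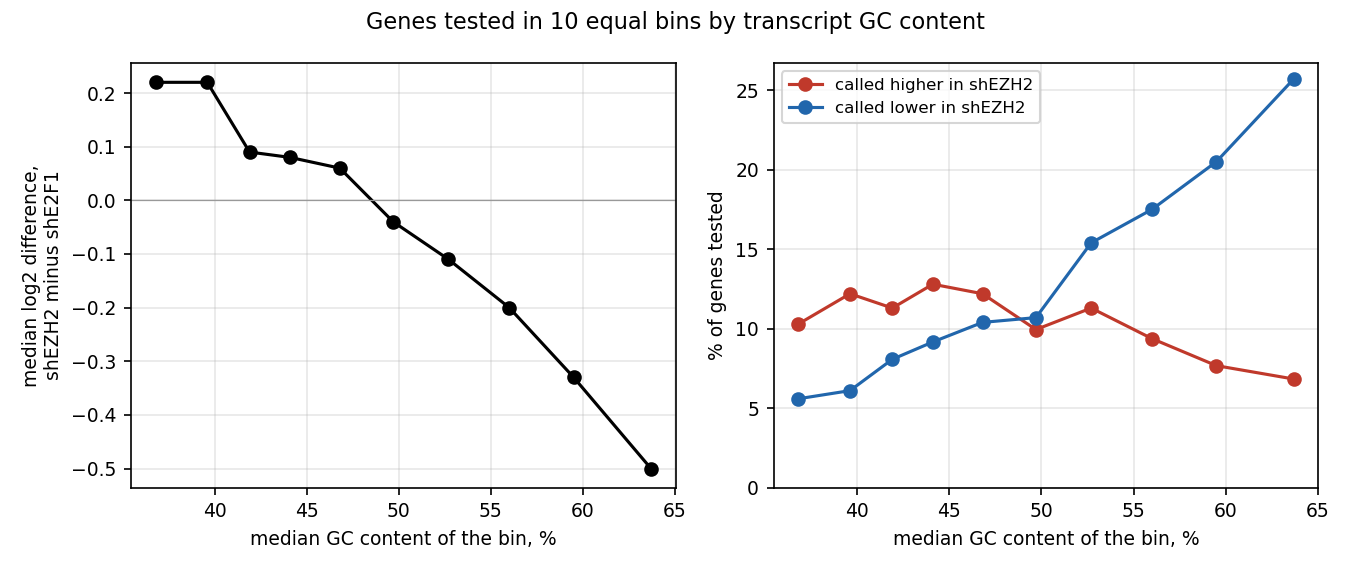
The genes tested in 10 equal bins by GC content of the transcript, with the median GC content in % on the x axis. Left, the median log2 difference, shEZH2 minus shE2F1, falls from 0.22 to -0.50, and right, the share of genes called lower in shEZH2 (blue) climbs from 5.60% to 25.7% while the share called higher (red) ends at 6.84%.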

How the data were processed

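RNA-seq libraries of MDA-MB-231 cells carrying shEZH2, shE2F1 or control shRNA were analysed from the gene tables that the authors deposited. Of 18 sample records in the series, 8 were exact copies of others, which left 10 distinct libraries. Per the methods and the submitters' processing notes, the authors mapped reads with STAR (2.7.2b in the notes, another version in the methods) to hg38 with Ensembl release 108 and estimated abundance with RSEM 1.3.1. The deposited expected counts divide reads that map to several genes, and the authors also deposited TPM, which are scaled by length and were used for no test, and effective lengths, used for an alternative. Whether counting used the strand is not given in the sources used here, so reads of a gene and of an opposite-strand neighbour may have been counted together. Symbols, GRCh38 coordinates, transcript GC content and length came from GENCODE 44, which held 62625 of the 62703 identifiers (99.9%), and promoter sequences came from RefSeq (GRCh38.p14).

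Expected counts were rounded and tested in edgeR 4.0.16 (R 4.3.3) with filterByExpr, TMM scaling and the quasi-likelihood test, p-values being adjusted by Benjamini-Hochberg across the genes tested. The 6 hairpin libraries were fitted together without covariates (3 residual degrees of freedom, biological coefficient of variation 0.0948), and the contrast shEZH2 minus shE2F1 gave no weight to the controls. Calls required an adjusted p under 0.01 together with a difference above 2-fold, as in the study. Tested on simulated data with 14942 genes, the contrast recovered 97% of 100 genes changed by 1.5 log2 units and 98% of 100 changed by 2, with 0 false calls. The simulated counts took their spread from the fitted model and held no GC trend, and the changed genes were picked among those not near 0. These shares therefore check the procedure and do not give its error rate in the real libraries. Alternatives were DESeq2 1.42.0 (also used by the authors), other scalings, filters, thresholds and sets of libraries, a replicate block, a GC and length correction of each library (splines with 5 degrees of freedom), an effective length offset and leaving out each library in turn. Reads are not independent molecules, and limits from a count of 0 (3 counts) cover counting error only.

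Genes were named by a rule: EZH2, E2F1, the other PRC2 core genes, CDC20, CCNB1, PLK1, E2F5 and RRM2, then the 12 called coding genes per direction with the largest difference, a unique symbol, at least 200 counts on average and no overlap of the groups, and then, from each of 23 gene groups, up to 4 called members per direction with a mean of at least 50 counts. A few genes that the rule selects are not reported here, and some further members, called or not, are named with their values to show the range of a group. The members, gene groups and motifs were chosen with earlier results of these data known.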

Additional observations from a re-analysis of the deposited data

How the results depend on the processing

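The count of 3582 called genes stayed within 1.5 times under 17 of 19 alternatives. It ran from 2814 (without shEZH2 replicate 2) to 3595 when 1 library was left out, with 1342 to 1591 genes higher and 1472 to 2005 lower. The exceptions were the thresholds, with 9267 genes (4559 higher, 4708 lower) at an adjusted p under 0.05 and no fold, and 1459 (688 higher, 771 lower) when the test itself was against a 2-fold difference. Upper-quartile scaling moved the median of all genes to -0.089 and the share of higher calls from 44.6% to 39%. E2F1 passed the call at 1.34 with the GC and length correction and at 1.32 with that correction and the replicate block, and ran from 0.41 to 1.37 with 1 library left out. CCNB1, near 0 throughout, turned to 0.02 with the GC and length correction, to 0.02 with the block added, and to between -0.08 and 0.06 with 1 library left out. Of 118 named genes that were called, 97 kept the call in every alternative that gave them a value (17, or 16 for ADAM12, which fell under the filter at a mean of 50 counts) and 0 changed sign. The replicates share only a number. Their deviations correlated at 0.186 between shEZH2 and shE2F1 and at 0.031 and 0.069 with the control, and the fit with a replicate block called 3572 genes, of which 3521 were among the 3582. The depth limits genes near 0, where a fitted difference depends on the prior count, and 2 libraries per group limit every p.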

Other observations

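2 gene families were looked at after their members had appeared among the largest differences, so they are described without a test of the family. Metallothioneins, small proteins that buffer zinc and copper, had 5 of 11 annotated members with enough counts to be tested, and 4 of these were called higher in shEZH2. Over all genes tested 10.4% were called higher. Their summed level was 2896 and 4255 CPM in shEZH2, 431 and 434 CPM in shE2F1 and 756 and 797 CPM in the controls, so that both shEZH2 libraries lay above the other 4. MT2A, the member with the most counts, was at 1733 and 2571 CPM against 306 and 311 CPM (log2 difference 2.80, SE 0.16), and MT1A, at 1.16 to 1.67 CPM in the 4 libraries, was not called (0.18, SE 0.37).

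Pregnancy-specific glycoproteins, secreted immunoglobulin-like proteins of the placenta encoded in a cluster on chromosome 19, were all tested, and 9 of 10 were called lower in shEZH2. Over all genes tested 12.9% were called lower. Their summed level was 10.2 and 11.8 CPM in shEZH2, 107.9 and 90 CPM in shE2F1 and 18.3 and 12.1 CPM in the controls, and here the shE2F1 libraries stood above the other 4. PSG4 was at 3.49 and 2.76 CPM against 41.4 and 36.5 CPM (-3.65, SE 0.18), and PSG1, which started from 6.40 and 3.52 CPM in the controls, was at 1.90 and 1.5 CPM against 7 and 5.75 CPM (-1.92, SE 0.33). The members of both families resemble each other closely, so the estimation can divide reads among copies. The sums do not depend on the division among the coding members they hold, but reads given to any other copies are not in them.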
